A study of Mus musculus with 16 samples.

Results

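The enzymes described here make serine from glucose and pass its carbon to folate. They were taken from the table of gene levels by name, as 9 gene symbols: Phgdh, Psat1, Psph, Shmt1, Shmt2, Mthfd1, Mthfd2, Mthfd1l and Aldh1l2. Each symbol matched 1 row, so that all 9 were found among 38396 rows, of which 21127 are protein-coding. Shmt1 was taken to have been selected on its measured difference between the genotypes in these libraries, since the choice used measured values without naming the comparison. Its genotype values are therefore a description, given with no test, and the p-values of its depot differences would be void had those entered the choice. The remaining 8 enzymes belong to the same pathway.

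RNA was sequenced from epididymal white (eWAT), inguinal white (iWAT) and brown (BAT) fat of 12-week-old mice. The mice labelled HuR-FKO carried 2 floxed alleles of Elavl1, the gene for the RNA-binding protein HuR, with a Cre driven by the adiponectin (AdipoQ) promoter, and the controls (Ctrl) were littermates with the same floxed alleles and no Cre. This promoter is active in adipocytes, so that other cells of the fat pad keep an intact gene. There were 3 Ctrl and 3 HuR-FKO libraries of eWAT, 3 and 3 of iWAT, and 2 and 2 of BAT, each from RNA pooled from 3 animals, so n counts pools.

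Serine synthesis branches from glycolysis at 3-phosphoglycerate. Phgdh oxidises it, Psat1 transfers an amino group to the product, and Psph removes the phosphate to leave serine. Shmt1 in the cytosol and Shmt2 in the mitochondrion split serine into glycine and a carbon unit bound to tetrahydrofolate. Mthfd1 in the cytosol and Mthfd2 and Mthfd1l in the mitochondrion pass this unit between its oxidation states, towards purines, thymidylate, methionine or formate, and Aldh1l2 burns it to carbon dioxide with a gain of NADPH. In adipose tissue the pathway feeds nucleotide synthesis, methylation, glutathione and NADPH.

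The label HuR-FKO had no lower Elavl1 transcript level beside it in this table, which gives the whole gene in the whole fat pad. In eWAT the level ranged from 12.2 to 13.8 FPKM in Ctrl and from 13.3 to 15.4 FPKM in HuR-FKO. In iWAT the ranges were 12.4 to 15.8 and 13.9 to 16.5, while in BAT they were 7.36 to 8.34 and 8.17 to 8.98. FPKM is the number of fragments per kilobase of transcript and per unit of library size. The group names below are thus those of the labels. The depots carried their markers: the sum of 10 brown-fat genes was 65.8 to 89.0 FPKM in eWAT, 590 to 811 in iWAT and 6710 to 9650 in BAT among Ctrl libraries, and 7 mesothelial genes summed to 141 to 204 in eWAT and to at most 2.53 in the other depots. A BAT library held 10442 to 10785 protein-coding genes at over 1 FPKM, and a white one 11949 to 12532. FPKM summed over all rows was 719411 to 796184 in BAT libraries and 3.46e+06 to 1.29e+07 in white ones. Over protein-coding rows the sums were 631354 to 676812 and 578835 to 651068. Such differences between libraries cannot be told apart from those between BAT and white fat. The table gives no depth, and a rough estimate from low values is 9.8 to 18.5 M fragments.

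Promoter sequence is shown for Phgdh and Psat1, which had the largest depot differences of the 9 enzymes, and for Shmt1, on which the group was built. Of the 9 enzymes, 8 have a promoter in the RefSeq set on GRCm38.p6, taken from 250 bases before to 50 after the start, and Aldh1l2 was not matched. The CCAAT motif, searched on both strands, was in 6 of the 8 (Phgdh, Psat1, Psph, Shmt1, Mthfd1 and Mthfd2), against 37.4% of all 32851 promoters. The motif TGATGNAA, a form of the element read by Atf4, the amino acid stress factor, was in 0 of the 8 and in 3.97% of all. For an enzyme a match in any promoter of its gene counted, whereas the shares of all count promoters singly, so the counts and shares are not of like units. Both motifs were chosen with the expression values known, and a match or its absence says nothing of binding. Phgdh and Psat1 hold CCAAT more than once, and 1 window of each is shown. The windows follow in the direction of transcription, with the motif in capitals (ATTGG where it is read from the opposite strand). That of Phgdh is chr3:98339978-98340002, centred 21 bases before the start, that of Psat1 chr19:15925081-15925105, 34 before, and that of Shmt1 chr11:60811298-60811322, 45 before, all 3 from genes on the minus strand. The starts used for Phgdh, Psat1 and Shmt1 each lie within the span GENCODE gives the gene.
Phgdh: gcatttctgaCCAATcaaaaggaga
Psat1: gtgagcgtggCCAATagggagggga
Shmt1: gctcccactgATTGGgccgctgtag

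Phgdh and Psat1, the first enzymes of serine synthesis, were at their highest in eWAT, lower in iWAT and lowest in BAT. Phgdh (ENSMUSG00000053398, mm10 chromosome 3 from 98313170 to 98339990) read 215, 226 and 273 FPKM in the Ctrl libraries of eWAT, 81.8, 74.1 and 88.4 in those of iWAT, and 3.58 and 11.8 in the BAT pair. No depots overlapped. GENCODE holds a processed pseudogene of Phgdh, whose reads could have been shared with it. In eWAT it ranked 319th of the 21127 protein-coding genes, in iWAT 981st and in BAT 5283rd. Psat1 (ENSMUSG00000024640, chromosome 19 from 15904678 to 15947337) read 79.1, 79.6 and 67.8 FPKM in eWAT, 42.6, 36.4 and 34.3 across iWAT, and 2.58 and 5.34 for BAT, again with no overlap. Phgdh alone made up 61.7% to 70.6% of the summed FPKM of the 9 enzymes in eWAT, 43.2% to 50.3% in iWAT and 6.12% to 16.8% in BAT.

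Psph, which completes serine synthesis, ran the other way. It read 21.3, 11.4 and 10.9 FPKM in the Ctrl libraries of eWAT, 19.5, 14.0 and 15.2 in those of iWAT, and 24.4 and 21.6 in those of BAT, so that both BAT libraries were above every white one. The sum of the 9 enzymes was 348 to 387 FPKM in eWAT Ctrl and 58.5 to 70.4 in BAT Ctrl. In these the ratio of Psph to Phgdh within a library went from 0.0400 to 0.0993 in eWAT, through 0.172 to 0.239 in iWAT, to 1.82 and 6.82 in BAT. Enzymes of 1 linear route were thus at very different proportions in the depots.

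**Figure D1:**
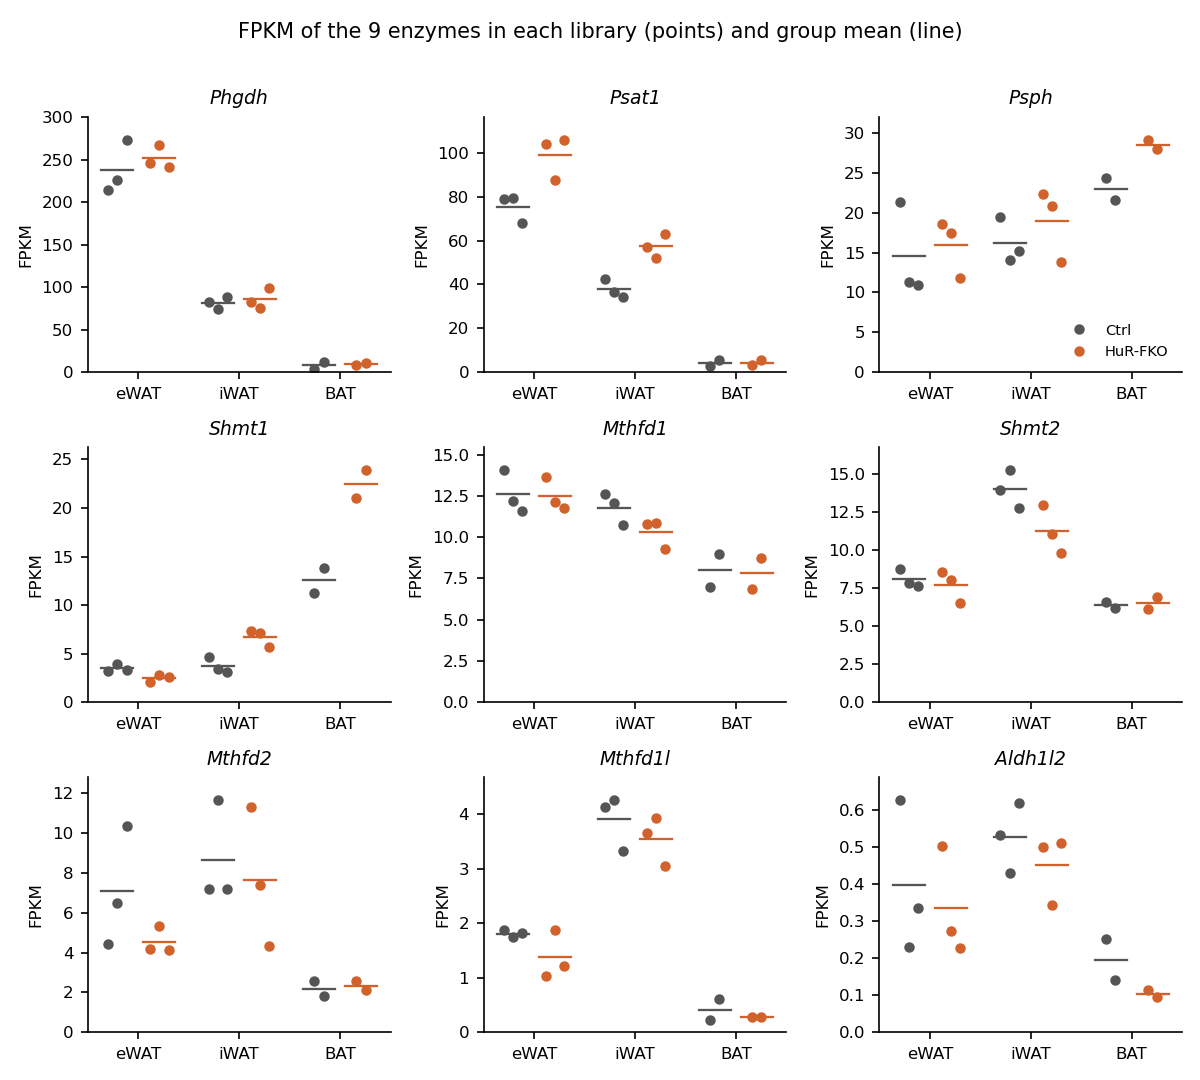
FPKM (y axes, linear from 0) of the 9 enzymes in each library (points, grey for Ctrl and orange for HuR-FKO) of the 3 depots, with group means as lines, 3 libraries a group in eWAT and iWAT and 2 in BAT. Phgdh and Psat1 step down from eWAT to BAT, where Phgdh is at 3.58 to 11.8 FPKM, whereas Shmt1 is highest in BAT at 11.3 to 23.9 FPKM.

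Among the Ctrl libraries, 4 of the 8 enzymes that passed the filter differed between iWAT and eWAT at an adjusted p under 0.05 from limma, 2 higher and 2 lower, where 28.1% of all 13054 genes did. The filter asked for a mean above 1 FPKM in at least 1 depot, and Aldh1l2 failed it. Phgdh fell by 1.53 on the log2 scale of FPKM + 1 from eWAT to iWAT (standard error 0.31, adjusted p = 0.00584), and Psat1 fell by 0.98 (standard error 0.20, adjusted p = 0.00565). Shmt2 rose by 0.72 (adjusted p = 0.00181) and Mthfd1l by 0.80 (adjusted p = 0.00438). Both that rose are mitochondrial and both that fell belong to serine synthesis. Psph (difference 0.20, interval -0.32 to 0.73), Mthfd1 (-0.09, -0.38 to 0.21), Mthfd2 (0.29, -0.32 to 0.90) and Shmt1 (0.06, -0.29 to 0.41) did not pass. The 4 calls were kept without any single Ctrl library.

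The libraries labelled HuR-FKO gave the same contrast in other animals. Phgdh read 246, 267 and 242 FPKM there in eWAT and 82.0, 75.0 and 99.2 in iWAT, a difference of -1.56 (adjusted p = 8.13e-05, limma). Psat1 fell by 0.78 (adjusted p = 0.00871) and Mthfd1l rose by 0.95 (adjusted p = 0.00287). Shmt2 was higher by 0.49 (adjusted p = 0.0247), a call lost without eWAT replicate 3 (adjusted p = 0.073) and without iWAT replicate 1 (0.0859) or 2 (0.073). The count was thus 4 of the 7 enzymes besides Shmt1, beside 29.9% of all 13017 genes.

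The step from the white depots to BAT was far larger for Phgdh and Psat1. On the log2 scale of FPKM + 1, Phgdh fell by 4.95 from eWAT to BAT in Ctrl (standard error 0.34, adjusted p = 3.79e-06, limma) and by 3.42 from iWAT (adjusted p = 2.36e-05). Psat1 fell by 4.003 (adjusted p = 1.37e-06) and 3.02 (adjusted p = 4.38e-06). Among the differences of 13054 genes between BAT and eWAT, Phgdh ranked 24th and Psat1 62nd from the lowest. In the libraries labelled HuR-FKO the differences between BAT and eWAT were -4.57 for Phgdh (adjusted p = 1.18e-07) and -4.28 for Psat1 (adjusted p = 5.53e-07).

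These values need to be read against a general shift. The median of all genes was -0.66 between BAT and eWAT and -0.69 between BAT and iWAT in Ctrl, and 74.2% and 74.5% of genes passed the threshold. Of all genes tested, 9.35% were higher and 64.9% lower in BAT than in eWAT, and 8.89% higher and 65.6% lower than in iWAT. The 7 of 8 enzymes that passed in each comparison are therefore close to the background. With each library divided by its median ratio to the geometric mean of genes above 1 FPKM in every library, the medians became -0.10 and -0.14, and 22.6% of genes were higher and 30.9% lower in BAT than in eWAT, and 22.8% and 34.1% than in iWAT. In the libraries labelled HuR-FKO, 6 of the 7 enzymes besides Shmt1 passed between BAT and eWAT and 7 between BAT and iWAT, where 77.7% and 76.9% of all genes did. There 9.11% of genes were higher and 68.6% lower in BAT than in eWAT (23.7% and 31.6% with the scaling), and 8.62% and 68.3% than in iWAT (24.1% and 34.1%). In Ctrl with the scaling, 3 of the 8 enzymes were called higher and 3 lower in BAT than in eWAT, and 2 and 5 than in iWAT. Phgdh then fell by 4.32 and Psat1 fell by 3.40 between eWAT and BAT. Leaving out single Ctrl libraries put the unscaled difference of Phgdh between -5.70 and -4.21.

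Shmt1 (ENSMUSG00000020534, chromosome 11 from 60788104 to 60811718) was highest in BAT. In the Ctrl libraries it read 3.21, 3.97 and 3.29 FPKM in eWAT, 4.63, 3.41 and 3.12 across iWAT, and 11.3 and 13.8 for BAT. BAT was above both white depots without overlap, and the white depots overlapped. The difference was 1.59 between BAT and eWAT (standard error 0.17, adjusted p = 4.22e-05, limma) and 1.53 between BAT and iWAT (adjusted p = 5.16e-05), and the scaling above widened these to 2.23 and 2.15. In the difference between BAT and eWAT it ranked 367th from the highest. Psph was higher in BAT than in eWAT by 0.69 before the scaling (adjusted p = 0.0363, limma). This call rests on 2 BAT libraries and was lost without eWAT Ctrl replicate 2 (adjusted p = 0.108) or 3 (0.113). With the scaling the means of Psph were 12.6 FPKM in eWAT Ctrl, 14.4 in iWAT Ctrl and 32.8 in BAT Ctrl.

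The mitochondrial enzymes ran against Shmt1. Shmt2 read 8.72, 7.82 and 7.63 FPKM in eWAT Ctrl, 14.0, 15.2 and 12.7 in iWAT and 6.61 and 6.18 in BAT. Mthfd1l was at 1.75 to 1.87 FPKM in eWAT, 3.33 to 4.25 in iWAT and 0.221 and 0.609 in BAT, and Mthfd2, which is known for its high level in dividing cells, at 4.45 to 10.3, 7.16 to 11.6 and 1.83 to 2.57. All 3 were thus highest in iWAT by group mean, although Mthfd2 overlapped between the white depots. From iWAT to BAT, Shmt2 fell by 1.01 (adjusted p = 9.09e-05), Mthfd1l by 1.80 (adjusted p = 1.57e-05) and Mthfd2 by 1.57 (adjusted p = 0.00118). All 3 of these stayed past the threshold with the scaling, at -0.40, -1.51 and -1.05.

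Against eWAT the sign for Shmt2 and Mthfd1 and the call for Mthfd2 depended on that scaling. Shmt2 was lower in BAT by 0.29 (adjusted p = 0.0630) before the scaling and higher by 0.34 (adjusted p = 0.0371) after it. Mthfd1, the cytosolic enzyme that carries 3 activities in 1 chain, was lower in BAT by 0.60 than in eWAT (adjusted p = 0.00456) and by 0.52 than in iWAT (adjusted p = 0.0101). Both differences changed sign with the scaling, to 0.04 and 0.11, and the second missed the threshold without BAT Ctrl replicate 1 (adjusted p = 0.0836). Mthfd2 was lower in BAT than in eWAT by 1.28 (adjusted p = 0.00387), and by 0.75 with the scaling (adjusted p = 0.0670). Mthfd1l was lower by 1.004 (adjusted p = 0.000521) and by 0.73 with the scaling (adjusted p = 0.00625).

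**Figure D2:**
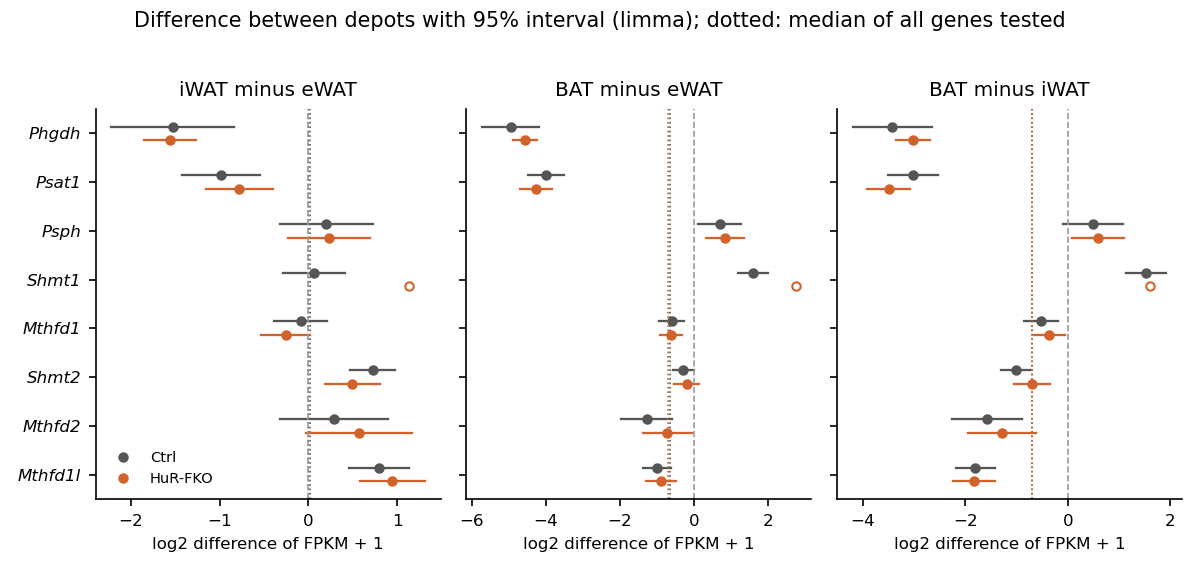
Log2 difference of FPKM + 1 (x axes) between depots for 8 enzymes in Ctrl (grey) and HuR-FKO (orange) libraries, with 95% intervals from limma, and dotted lines at the median of all genes tested. Shmt1 in HuR-FKO is an open point with no interval. In BAT minus eWAT, Phgdh and Psat1 lie at -4.95 and -4.003 in Ctrl, far below the dotted line at -0.66, and Mthfd1, at -0.60, lies near it.

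The pair of serine hydroxymethyltransferases gives the contrast of compartments within a library, a measure that no scaling of libraries moves. The ratio of Shmt2 to Shmt1 was 1.97 to 2.72 in eWAT Ctrl, 3.01 to 4.47 in iWAT Ctrl and 0.447 to 0.586 in BAT Ctrl, so that the mitochondrial transcript exceeded the cytosolic one in every white library and fell below it in both BAT libraries. The ratio of Mthfd1l to Mthfd1, again mitochondrial to cytosolic, was 0.133 to 0.157 in eWAT Ctrl, 0.311 to 0.353 in iWAT Ctrl and 0.0317 to 0.0677 in BAT Ctrl. The 3 depots did not overlap in either ratio. The ratio of Psat1 to Phgdh varied less, from 0.249 to 0.369 in eWAT Ctrl, 0.388 to 0.521 in iWAT Ctrl and 0.451 to 0.720 in BAT Ctrl.

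**Figure D3:**
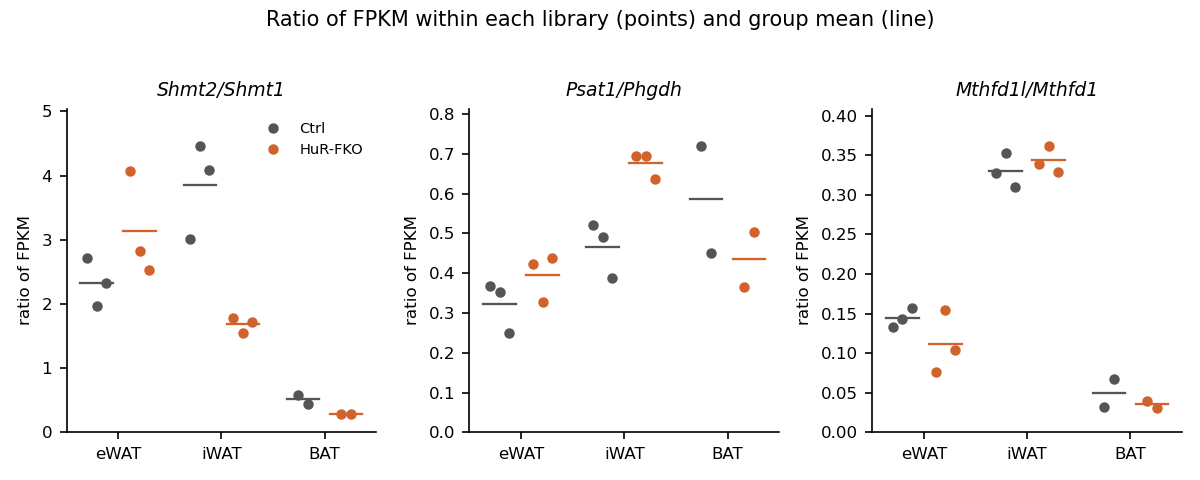
Ratio of FPKM within each library (y axes, linear from 0) for Shmt2 to Shmt1, Psat1 to Phgdh and Mthfd1l to Mthfd1, with points for libraries and lines for group means, grey for Ctrl and orange for HuR-FKO. Shmt2 to Shmt1 is above 1.5 in every white library and under 0.6 in every BAT library.

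Cell types moved with these levels, and in bulk tissue fewer cells of a type and less RNA per cell cannot be told apart. The sum of 8 adipocyte genes, Adipoq among them, was 24300 to 33140 FPKM in eWAT Ctrl, 18050 to 18620 in iWAT Ctrl and 14540 to 14850 in BAT Ctrl, which is the order of Phgdh and Psat1 over a narrower range. With the scaling the part of that order between iWAT and BAT was lost, as 2 of the 8 were then called higher and 2 lower in BAT than in iWAT. The sum of 10 proliferation genes was 18.6 to 19.4, 35.9 to 56.4 and 5.48 to 5.52, which is the order of Mthfd1l and Shmt2. For Shmt2 the part of that order between eWAT and BAT was reversed with the scaling, at means of 7.04 in eWAT Ctrl and 9.13 in BAT Ctrl. B-cell genes summed to 5.81 to 7.76 in eWAT, 55.6 to 275 in iWAT and 1.125 to 1.146 in BAT, where Pax5 and Blk were under 0.1 FPKM, and fibroblast genes to 1659 to 1990, 3295 to 3948 and 226 to 584. The part of these cell types in the enzymes' levels was not tested.

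Shmt1 differed between the genotypes in opposite directions across the depots. In eWAT the libraries labelled HuR-FKO read 2.11, 2.84 and 2.58 FPKM, all below the 3.21 to 3.97 of Ctrl, and the mean was 2.51 ± 0.37 against 3.49 ± 0.42 (SD, n = 3 each). In iWAT they read 7.29, 7.09 and 5.68, all above the 3.12 to 4.63 of Ctrl. In BAT they read 21.0 and 23.9, both above the 11.3 and 13.8 of Ctrl. Such separation of the genotypes was seen for 13.2% of all genes in eWAT, 14.5% in iWAT and 41.4% in BAT. As log2 differences of FPKM + 1 the genotype differences of Shmt1 were -0.36, 0.71 and 0.79. With the genotypes together, Shmt1 was highest in BAT HuR-FKO, then BAT Ctrl, iWAT HuR-FKO, iWAT Ctrl, eWAT Ctrl and eWAT HuR-FKO, and in this order only iWAT Ctrl and eWAT Ctrl overlapped. These are the values that chose the gene, so no test is attached to them. Their ranks were 429th from the lowest of 12330 genes in eWAT, 82nd from the highest of 12706 in iWAT and 70th from the highest of 10944 in BAT. The ratio of Shmt2 to Shmt1 in iWAT lay at 3.01 to 4.47 for Ctrl, against 1.55 to 1.78 for HuR-FKO.

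Brown-fat markers were higher with Shmt1 in iWAT by their sum, while in BAT the sums overlapped and single markers went both ways. The 10 brown-fat genes summed to 590 to 811 FPKM in iWAT Ctrl and to 995 to 1941 in iWAT HuR-FKO, and Ucp1, the uncoupling protein of thermogenic fat, was at 8.33 to 25.3 and 101 to 182 FPKM, while Zic1, a marker of classical brown fat, was under 0.1 FPKM in both groups. Of the 9 tested there, 7 were higher in HuR-FKO and 2 lower (Ebf2 and Lhx8), and 1 was called, where 0.0394% of all genes were. In BAT the sums were 6710 to 9650 in Ctrl against 7239 to 8078 in HuR-FKO. Cidea, a lipid-droplet protein of brown fat, had lower means in HuR-FKO (1694 FPKM in Ctrl and 1254 in HuR-FKO), as had Cox8b (3523 and 3077). Ppara (10.8 and 18.3) and Dio2 (16.2 and 21.2) had higher ones. With the scaling, the median log2 difference of the 10 genes in BAT was 0.155 and 0 were called, as was so over all genes. Skeletal muscle genes, 9 of 10 measured, summed to 345 to 2620 in iWAT Ctrl and 14.5 to 577 in iWAT HuR-FKO, and to 2033 to 3751 in BAT Ctrl and 1187 to 1235 in BAT HuR-FKO. In eWAT the brown-fat sum was 65.1 to 121 in HuR-FKO, with Zic1 and Lhx8 under 0.1 FPKM in both genotypes. The 10 fibroblast genes summed to 3295 to 3948 in iWAT Ctrl and to 2326 to 3069 in iWAT HuR-FKO, without overlap. The 3 measured red-cell genes were higher by their sum in HuR-FKO without overlap in each depot, with 1355 to 2007 against 2619 to 3279 FPKM in eWAT, 778 to 978 against 1101 to 2171 in iWAT and 878 to 970.1 against 1164 to 1411 in BAT. Averaged over depots all 3 of them and 2 of 9 endothelial genes were called higher, where 2.64% of all genes were called in either direction. With the scaling these 2 counts held, 3 of the 10 brown-fat genes were called higher and 0 lower, and 1 of 8 adipocyte genes lower. Of all genes, 2.04% were then higher and 1.3% lower. The part of these cells in the level of Shmt1 was not tested.

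The genes whose profile over the 16 libraries was most like that of Shmt1 were named by a fixed measure. Likeness was the root mean square difference of log2(FPKM + 1), each gene centred on its own mean, over 13237 genes. The genotype values taken to have chosen Shmt1 entered this measure, so it supports nothing about the genotypes. The 5 nearest were Sdhb of complex II (0.264), Cyc1, Uqcrfs1 and Uqcrc1 of complex III (0.267, 0.272 and 0.273) and Ppargc1b, a coactivator of mitochondrial genes (0.275). Cyc1, for example, had group means of 170 and 171 FPKM in eWAT Ctrl and HuR-FKO, 188 and 264 in iWAT, and 671 and 832.9 in BAT. In eWAT, where Shmt1 was at 3.49 in Ctrl and 2.51 in HuR-FKO, only Ppargc1b of the 5 had a lower mean in HuR-FKO (0.956 and 0.939). Among the other enzymes Psph was nearest to Shmt1, at 0.671, and Phgdh the farthest, at 2.73.

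None of the enzymes besides Shmt1 that passed the filter was called between the genotypes in any depot, BAT being without Mthfd1l, which was under 1 FPKM in both groups there. Of all genes, 0.0406% of 12330 were called in eWAT, 0.0394% of 12706 in iWAT and 0% of 10944 in BAT, so few calls were made of any kind. At an unadjusted p under 0.05 there were 944, 1172 and 1055 genes, and Psat1 was among them in eWAT and iWAT. A fit of limma without a trend in the variance also called none of these enzymes in any depot.

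Psat1 was the enzyme besides Shmt1 whose libraries separated in both white depots. In eWAT it read 104, 87.8 and 106 FPKM in HuR-FKO against 67.8 to 79.6 in Ctrl, a difference of 0.39 (interval 0.13 to 0.65, adjusted p = 0.470). In iWAT it read 56.9, 52.1 and 63.2 against 34.3 to 42.6, a difference of 0.59 (interval 0.31 to 0.87, adjusted p = 0.259). The groups did not overlap in either depot, as was so for 13.2% of all genes in eWAT and 14.5% in iWAT. In BAT it read 3.09 and 5.50 against 2.58 and 5.34 and overlapped. Averaged over the depots the difference was 0.37 (adjusted p = 0.131, limma over 16 libraries), and without BAT Ctrl replicate 2 it was 0.50 (adjusted p = 0.0263).

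Phgdh did not follow Psat1. It differed by 0.09 in eWAT (interval -0.18 to 0.36) and by 0.06 in iWAT (interval -0.24 to 0.37), and read 8.43 and 10.9 FPKM in BAT HuR-FKO against 3.58 and 11.8 in BAT Ctrl. The 2 BAT Ctrl libraries lay so far apart that the BAT difference of 0.47 became -0.28 without replicate 1 and 1.21 without replicate 2, and the average over depots, 0.21, became 0.45 without replicate 2 (adjusted p = 0.0191). The ratio of Psat1 to Phgdh in iWAT lay at 0.388 to 0.521 for Ctrl, against 0.636 to 0.695 for HuR-FKO. Psph read 29.1 and 28.0 FPKM in BAT HuR-FKO against 24.4 and 21.6 in Ctrl, without overlap, as did 41.4% of all genes in BAT with 2 libraries a group, and its difference of 0.30 did not pass (adjusted p = 0.564).

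The folate enzymes differed little or unsteadily between the genotypes. Shmt2 in iWAT read 12.96, 11.01 and 9.81 FPKM in HuR-FKO against 12.7 to 15.2 in Ctrl (difference -0.29, interval -0.59 to 0.01, adjusted p = 0.548). Mthfd1 had the narrowest intervals, -0.27 to 0.25 in eWAT and -0.44 to 0.08 in iWAT. Mthfd2 read 4.17, 5.31 and 4.15 in eWAT HuR-FKO and 4.45, 6.48 and 10.3 in eWAT Ctrl, where 1 library was far above the others, and its interval ran from -1.05 to 0.08. Mthfd1l differed by -0.26 in eWAT and -0.11 in iWAT. Aldh1l2 was at 0.0957 to 0.625 FPKM in all 16 libraries and entered no test.

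**Figure D4:**
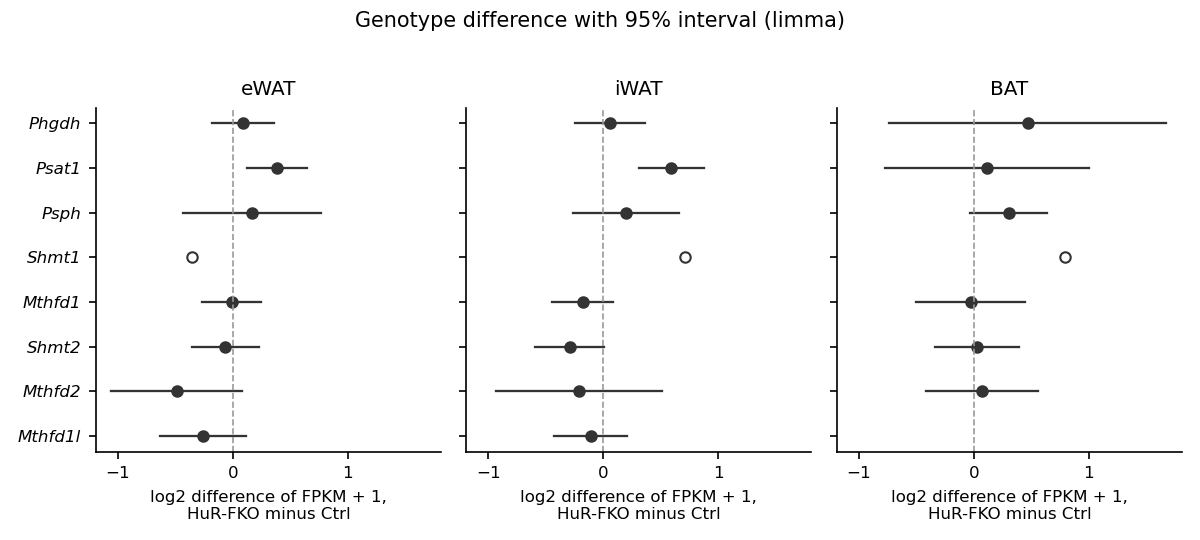
Log2 difference of FPKM + 1 (x axes), HuR-FKO minus Ctrl, in the 3 depots for the enzymes that passed the filter, with 95% intervals from limma. Shmt1, drawn as an open point with no interval, is at -0.36 in eWAT, 0.71 in iWAT and 0.79 in BAT, and Psat1 is at 0.39, 0.59 and 0.11.

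Whether a genotype difference itself differed between depots was tested over the 16 libraries for the enzymes other than Shmt1. None of the 7 passed, with 0.0151% of 13237 genes called for iWAT against eWAT, 0% for BAT against eWAT and 0.00755% for BAT against iWAT. Unadjusted p fell under 0.05 for 404, 711 and 641 genes, none of them among these 7. For Psat1 the genotype difference in iWAT exceeded that in eWAT by 0.21, with an interval from -0.39 to 0.80. The average over depots called 2.64% of all genes, and none of the 7 with all libraries in.

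Genes around the enzymes were read from 6 lists. The list of glucose uptake and glycolysis went the opposite way to Phgdh. It holds the route to 3-phosphoglycerate and also Pgam1, Eno1 and Pkm, which act after it. In Ctrl, 12 of its 15 genes were higher and 2 lower in BAT than in eWAT, where 9.35% of all genes were higher. The median of the list was 1.84, against -0.66 for all genes. Eno1 was at 1329 ± 1.43 FPKM in BAT (SD, n = 2) and 241 ± 77.2 in eWAT (SD, n = 3), Pgk1 at 329 and 56.8, Pkm at 950.3 and 193, and Pfkm, the muscle form of phosphofructokinase, at 71.5 and 11.5. Muscle genes moved with them, with sums of 6.43 to 8.28 FPKM in eWAT Ctrl and 2033 to 3751 in BAT Ctrl, and their part was not tested. In iWAT 3 of the 15 were higher than in eWAT (Pkm, Eno1 and Pgk1) and 0 lower, where 15.9% of all genes were higher and 12.2% lower, and the muscle genes summed to 345 to 2620 FPKM there.

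Of 16 measured genes of serine use and transport, 12 were lower and 1 higher in BAT than in eWAT, where 64.9% of all genes were lower, and with the scaling these were 8 and 4. Slc7a10, an exchanger of small neutral amino acids including serine that marks white adipocytes, had the order of Phgdh, at 116 ± 13.7 FPKM in eWAT Ctrl (SD, n = 3), 55.2 ± 14.3 in iWAT Ctrl (SD, n = 3) and 7.09 ± 3.17 in BAT Ctrl (SD, n = 2). It fell by 1.09 from eWAT to iWAT (adjusted p = 0.00796, limma) and by 3.91 to BAT. Slc1a5, another carrier of neutral amino acids, fell by 0.75 from eWAT to iWAT, and Slc38a1 and Slc38a2, which take up glutamine and other neutral amino acids, rose by 1.31 and 0.85.

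Among 18 further genes of the folate cycle, 1 was higher and 12 lower in BAT than in eWAT in Ctrl, and 2 and 7 with the scaling. These shares lie near those of all genes, of which 64.9% were lower, or 30.9% with the scaling. Aldh1l1, the cytosolic relative of Aldh1l2, was at 93.4 FPKM in eWAT Ctrl, 75.6 in iWAT Ctrl and 26.0 in BAT Ctrl, so that the cytosolic enzyme was measured far above the mitochondrial one in each depot. The folate receptor Folr2 was at 59.4, 113 and 4.27 FPKM in the same order. It moved with the 10 measured macrophage genes, whose sums were 1068 to 1303, 1511 to 2324 and 67.4 to 191 FPKM, and their part was not tested. Folr1, another folate receptor, was at 3.78 FPKM in eWAT Ctrl and 0.0628 in iWAT Ctrl (difference -2.04), and its eWAT level moved with the 7 mesothelial genes, 141 to 204 against 1.22 to 2.53 FPKM in iWAT, whose part was not tested.

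Of 11 genes of glycine and choline breakdown, Gatm and Gldc were higher and Sardh and Gamt lower in iWAT than in eWAT, where 15.9% of all genes were higher and 12.2% lower. Gatm and Gamt carry out the 2 steps of creatine synthesis, which uses glycine, and they went in opposite directions, from 3.09 to 8.37 FPKM for Gatm and from 45.0 to 26.3 for Gamt. Of 8 genes of the methionine cycle and transsulfuration, Ahcyl1 alone was higher in iWAT, and in BAT it was at 195 FPKM against 43.0 in eWAT. Of 16 genes of the Atf4 program, 6 were lower and 0 higher in iWAT than in eWAT in Ctrl (4 and 0 with the scaling), where 12.2% of all genes were lower. Asns, asparagine synthetase, was at 63.2 FPKM in eWAT and 38.3 in iWAT (adjusted p = 0.00474), and Sesn2 and Pck2 were lower with it, as was Chac1, though not with the scaling (adjusted p = 0.0754). Between the genotypes none of these lists had a called gene in any depot. Averaged over the depots, where 2.64% of all genes were called, the calls were Pgam1 (0.41, glycolysis), Chdh (-0.48, choline oxidation), Sfxn2 (-0.48) and Slc38a2 (-0.29). With the scaling, 1 gene of the glycolysis list was called higher and 1 lower in that comparison.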

How the data were processed

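Libraries of strand-specific, paired-end RNA-seq from mouse fat were analysed from the deposited FPKM table, in which the authors had divided fragment counts by transcript length and library size. The submitters' processing notes name TopHat2 2.0.11, Cufflinks 2.1.1 and the mm10 build. No counts were used here. The depth was estimated from low values, of which 55% to 79.1% per library fell at whole fragments (tolerance 0.05 on the log2 scale), and is therefore rough.

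Values were tested as log2(FPKM + 1), a scale on which the change of a low gene comes out too small, with limma 3.58.1 in R 4.3.3 (lmFit, then eBayes with a trend), two-sided, with Benjamini-Hochberg adjustment over all protein-coding genes (GENCODE vM21) whose mean exceeded 1 FPKM in at least 1 compared group, and a threshold of 0.05. Intervals are at 95%. Genotypes were compared within each depot, depots within each genotype over its 8 libraries, and averaged and interaction differences over 16 libraries. As libraries are pools, p-values measure the spread between pools. The code was tested on simulated data. Tables and plots were made with Python 3.11.15, pandas 2.3.3, numpy 2.4.6 and matplotlib 3.10.9.

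The members and the gene lists were chosen with earlier results of these data known. All 9 enzymes are named, with the 5 genes most like Shmt1 and, from each list, up to 4 of the called genes with the largest differences. Of the 38371 distinct gene IDs, 36464 were found in GENCODE. Same-numbered eWAT and iWAT Ctrl libraries deviated together (r from 0.21 to 0.292 over 3 pairs), so these numbers may mark pairs. The other pairings did not meet that rule in every pair or held fewer than 3 pairs. The main fits ignored any pairing, so their standard errors and p-values are unpaired. It entered only through the replicate block among the alternatives. Alternatives were another pseudocount (0.1), no FPKM minimum, median-ratio scaling, all genes, no trend, a replicate block, 1 fit of all libraries and leaving out each library.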

Additional observations from a re-analysis of the deposited data

Results flagged for a closer look

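The genotype difference of Shmt1 had opposite signs in the depots. In eWAT every library labelled HuR-FKO was below every Ctrl library, and in iWAT and in BAT every one was above. The genotypes likewise did not overlap for 13.2% of all genes in eWAT, 14.5% in iWAT and 41.4% in BAT, which has 2 libraries a group. For Shmt1 the difference in iWAT exceeded that in eWAT by 1.07 on the log2 scale of FPKM + 1, and the difference in BAT exceeded that in eWAT by 1.15. These differences were not tested, because the genotype values of Shmt1 chose the gene. Leaving out single libraries put them at 0.976 to 1.202 and 1.01 to 1.29. Both ranges rest on the same values that chose the gene and support nothing.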

How the results depend on the processing

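Averaged over depots, none of the 7 enzymes besides Shmt1 passed the threshold, and Psat1 and Phgdh passed without BAT Ctrl replicate 2. A count that includes Shmt1 rests on the values taken to have chosen it and supports nothing: it was 1, became 0 with a pseudocount of 0.1, with no minimum of FPKM and with all genes, and ran from 0 to 3 without single libraries. Within each depot it was 0 under every setting run, although the calls over all genes ranged from 0 to 22 in eWAT, 0 to 34 in iWAT and 0 to 50 in BAT, and up to 136 in BAT without single libraries.

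With median-ratio scaling the difference of Mthfd1 changed sign in BAT between genotypes (0.022), in Ctrl between BAT and eWAT (0.041) and BAT and iWAT (0.11), and in HuR-FKO (0.088 and 0.29). Shmt2 changed sign between BAT and eWAT, to 0.34 in Ctrl and 0.49 in HuR-FKO (adjusted p = 0.0107), and between BAT and iWAT in HuR-FKO it was at -0.05 (adjusted p = 0.758). The difference of Shmt1 in iWAT over that in eWAT was 1.31 with a pseudocount of 0.1.

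Leaving out single libraries, genotype differences that changed sign ranged in eWAT from -0.071 to 0.065 for Mthfd1 and -0.14 to 0.039 for Shmt2, and in iWAT from -0.50 to 0.10 for Mthfd2 and -0.051 to 0.15 for Phgdh. In BAT they ranged from -0.094 to 0.24 for Mthfd2, -0.19 to 0.13 for Mthfd1, -0.30 to 0.53 for Psat1, -0.049 to 0.10 for Shmt2 and -0.28 to 1.21 for Phgdh. Averaged, Phgdh ranged from -0.042 to 0.45, and Shmt1 between iWAT and eWAT in Ctrl from -0.072 to 0.15. Where 1 library was left in a group, it was assumed to vary like the others. The causes were not tested. With the replicate block the counts of enzymes called stayed at 0 within each depot and at 4 between iWAT and eWAT in Ctrl, and the calls over all genes became 46 in BAT and 498 averaged over depots. The depth is known only roughly, and BAT has 2 libraries a genotype.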
